A study of Mus musculus with 13 samples.

Results

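Collagens, laminins, thrombospondins, spondins, proteoglycans of the matrix and the SPARC proteins were followed in excitatory neurons of the mouse claustrum. The genes were taken by their symbols: every gene named Col, Lama, Lamb or Lamc with a number, every thrombospondin (Thbs), and Spon1, Spon2, Dcn, Bgn, Lum, Fmod, Vcan, Ncan, Bcan, Acan, Sparc and Sparcl1. This gave 70 genes of the 23427 named genes in the count tables, of which 43 were collagens, 10 laminins, 4 thrombospondins, 2 spondins, 4 small leucine-rich proteoglycans, 4 lecticans and 2 SPARC family genes. The 70th, Col4a3bp, carries a collagen's name but encodes a ceramide transfer protein and no part of the matrix.

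The extracellular matrix is a mesh of secreted proteins and proteoglycans that holds cells in place and carries signals to receptors on their surface. Collagens are triple helices that assemble into fibrils, networks or beaded filaments, laminins form the sheet of basement membranes around vessels and the pia, and lecticans bind hyaluronan in the space between brain cells. In adult brain much of this material is made by glia, vessel cells and meningeal fibroblasts, yet neurons also transcribe a choice of collagens and of secreted matrix proteins that act on axons and synapses.

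Cells were picked by hand from claustral microdissections of 4 mature male C57BL/6 mice and sequenced singly in 13 plates. In 1 mouse, which had received the retrograde virus rAAV2-retro-CAG-GFP in the anterior cingulate cortex, cells were picked blind to the label. In the other 3 mice green retrobeads had been placed in the lateral entorhinal cortex (LEC) and red retrobeads in the retrosplenial cortex (RSC), and cells were picked as LEC-labeled, RSC-labeled or unlabeled (projection mice 1, 2 and 3). A label marks a cell whose axon reached the injected area, so an unlabeled cell may still project there. All 4 mice were otherwise without treatment or gene deletion in the labels, and each mouse is 1 replicate.

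Of 1112 cells, 1011 were kept because both Snap25, a gene of nerve terminals, and Slc17a7, the vesicular glutamate transporter of these excitatory cells, had been counted in them. They fell into 438 Synpr-high cells (Synpr at 200 CPM or more, where CPM is a gene's counts scaled to 1000000 counts per cell or sum), 359 Slc30a3-high cells (Slc30a3 at 20 CPM or more and Synpr under 200) and 214 remaining cells. Both limits cut through a range: 21 cells held Synpr between 100 and 400 CPM, and 19 others held Slc30a3 between 10 and 40. Without Synpr, which set the class, the core-like claustral markers (Gnb4, Lxn, Gfra1, Nr4a2, Slc17a6) summed to between 4257 and 4813 CPM in the Synpr-high cells of the 4 mice and to at most 775 elsewhere. A layer 6-like list (Ctgf, Sla, Foxp2, Rprm, Syt6, Fezf2, Tle4) summed to between 371 and 510 CPM in the remaining cells and to at most 58.0 elsewhere. Shell-like markers without Slc30a3 (Nnat, Ntm, Syn2, Ldb2) summed to between 1671 and 2834 CPM in Slc30a3-high cells, to between 1057 and 2482 in the remaining cells and to at most 547 in Synpr-high cells, so that the remaining cells were a mixture. Depth was unequal, with a median of 26023 counts a cell in the mouse sampled blindly and of between 138535 and 154262 in the projection mice. The 13 plates were separate libraries and shared cell barcodes (343 of 368 barcodes occurred in 2 or more plates).

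Cells of other types could also supply matrix transcripts, so their marker lists were measured in the same sums. Of the endothelial list 3 of 6 genes were in the tables, with a summed level of at most 3.48 CPM, and 5 of 6 pericyte and smooth muscle genes summed to at most 9.01 in the class sums and 14.04 in the label sums. The fibroblast and leptomeningeal list shares Lum, Dcn, Col1a1, Col1a2 and Col3a1 with the matrix genes. Its other genes (Slc6a13, Pdgfra, Igf2) had a median sum of 0.441 CPM in Synpr-high, 0.0483 in Slc30a3-high and 0.126 in the remaining cells, with Slc6a13 at 0 in all and 1 sum of Slc30a3-high cells at 13.5. The 6 oligodendrocyte genes summed to between 71.3 and 1196 CPM in Slc30a3-high, 52.7 and 417 in Synpr-high and 36.3 and 84.5 in the remaining cells. The inhibitory neuron list (5 of 6 genes in the tables) had a median sum of 50.7 CPM in Synpr-high (0 to 143), 0.487 in Slc30a3-high (0 to 3.78) and 4.34 in the remaining cells (0 to 123). The 6 microglial genes summed to at most 9.28 CPM. Values of the astrocyte and oligodendrocyte precursor lists are given below, beside matrix genes that those cells also express.

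Sequence upstream of 5 collagen genes that passed a test below is shown first, because these genes went in opposite directions: Col11a1 and Col24a1 were read mostly in Synpr-high cells, and Col6a1, Col23a1 and Col27a1 mostly in the others. RefSeq promoter windows on GRCm38.p6 were matched for 50 of the 70 genes and for 7 of the 12 genes that passed a test below. Each line gives 120 bases, 5′ to 3′ on the gene's strand. The stretch shown is the one nearest to the RefSeq start that holds no annotated exon, which for Col6a1 ends 124 bases before the start. Capitals mark 3 motifs. The GC box was searched as GGGCGG, the CCAAT box by the letters of its name, and the TATA box as TATAAA, each on both strands.
Col11a1, chr3:114030420-114030539, plus strand: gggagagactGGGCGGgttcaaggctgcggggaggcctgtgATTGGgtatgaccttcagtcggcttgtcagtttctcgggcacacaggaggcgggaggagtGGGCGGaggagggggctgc
Col24a1, chr3:145292352-145292471, plus strand: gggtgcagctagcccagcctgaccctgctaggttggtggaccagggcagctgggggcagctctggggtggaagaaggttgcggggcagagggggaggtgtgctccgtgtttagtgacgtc
Col6a1, chr10:76726169-76726288, minus strand: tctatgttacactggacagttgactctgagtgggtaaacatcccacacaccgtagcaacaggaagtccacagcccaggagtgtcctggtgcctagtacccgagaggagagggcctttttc
Col23a1, chr11:51289800-51289919, plus strand: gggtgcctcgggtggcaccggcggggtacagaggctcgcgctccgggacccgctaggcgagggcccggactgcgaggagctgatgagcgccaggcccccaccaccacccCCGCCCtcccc
Col27a1, chr4:63215292-63215411, plus strand: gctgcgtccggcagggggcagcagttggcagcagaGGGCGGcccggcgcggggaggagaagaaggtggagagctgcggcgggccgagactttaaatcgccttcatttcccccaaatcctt
The Col11a1 stretch held 2 GC boxes and 1 CCAAT box, those of Col23a1 and Col27a1 held 1 GC box each, and those of Col24a1 and Col6a1 held none of the 3 motifs. Over the 120 bases next to the start, a GC box stood in 26 of 54 windows of the matrix genes (48.1%) and in 26.5% of all 32851 RefSeq windows, a CCAAT box in 9 (16.7%) and 21.3%, and a TATA box in 4 (7.41%) and 6.34%. Among these 5 genes, both directions held stretches with and without a GC box. The Col6a1 stretch lies away from its start, and Col24a1 passed in the main fit only between the labels. The stretches of Col8a1 and Ncan, which also passed, are not shown and held 3 GC boxes and 1 GC box. Whether the motifs sort the genes by class was not tested.

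Matrix genes differed between the claustral classes in both directions, and more of them were lower than higher in Synpr-high cells. Between Synpr-high and Slc30a3-high cells, 11 of the 38 matrix genes tested passed (28.9%), against 6.71% of all 13104 genes tested (edgeR quasi-likelihood test on counts summed per mouse and class, adjusted p by Benjamini-Hochberg under 0.05, n = 4 mice, called edgeR adjusted p from here on). In Synpr-high cells 3 were higher (3.28% of all genes were) and 8 lower (3.43% of all genes were). The median log2 fold change of the 38 was -0.28, beside 0.01 over all genes. The other 32 of the 70 did not pass the filter on low counts and were not tested, and 1 of them, Col4a6, had no count in any kept cell.

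Against the remaining cells, 10 of the 38 passed (26.3%; 8.97% of all genes), with 1 higher in Synpr-high cells (4.24% of all genes) and 9 lower (4.74%), and a median of -0.64 beside 0.01. With the mouse as a block 13 passed, a fit whose share over all genes is not given here. Slc30a3-high and remaining cells differed in 2 of the 38 (5.26%; 0.778% of all genes), none higher in Slc30a3-high cells (0.298% of all genes) and 2 lower (0.481%). At an unadjusted edgeR p under 0.05 were 5 of the 38 and 1321 of all 13104 genes. By DESeq2 4 passed, with no share over all genes given here. These 3 comparisons share their cells, so they are not independent of each other.

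**Figure D1:**
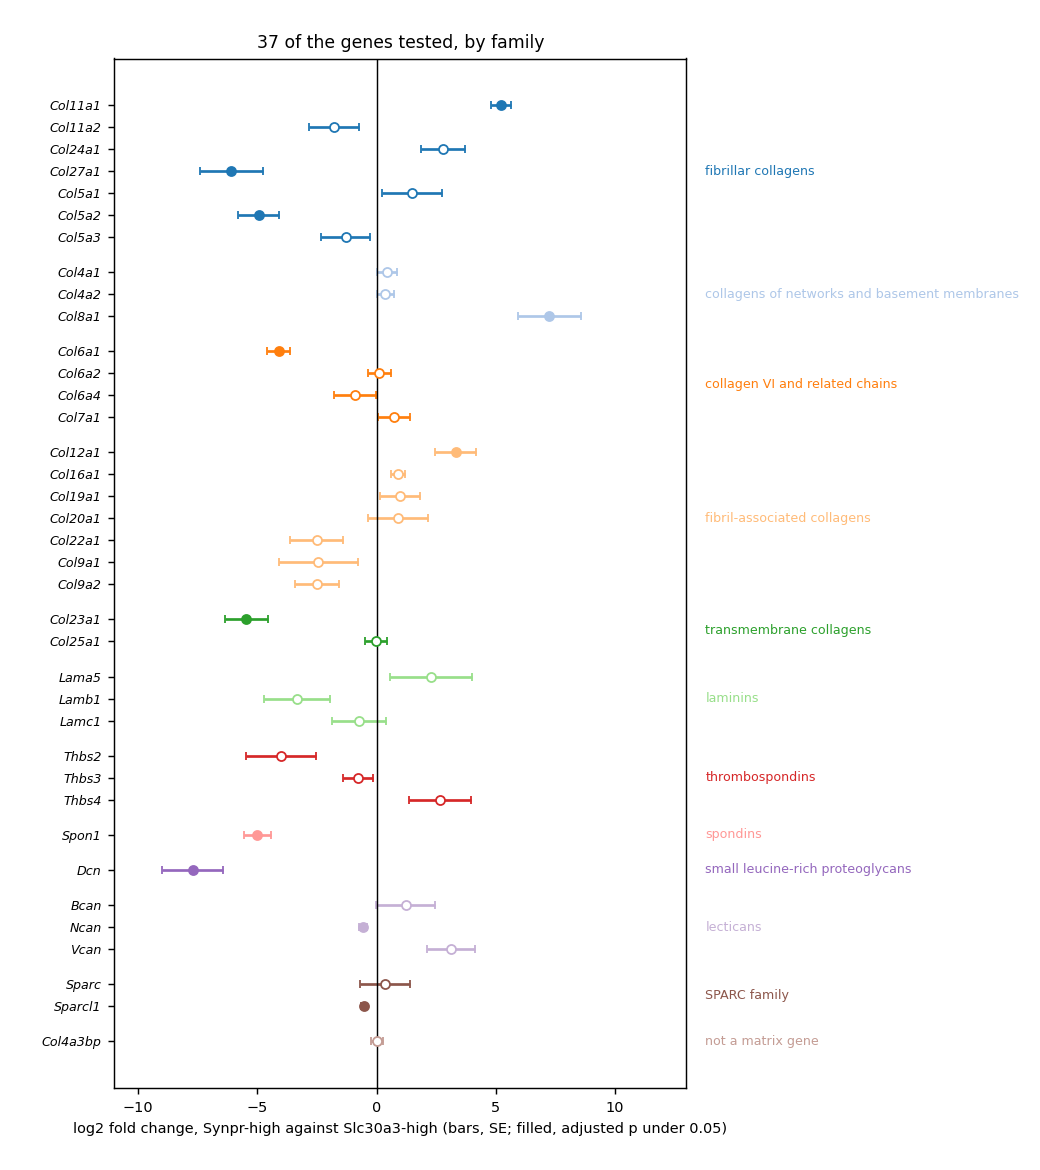
Log2 fold change of 37 tested matrix genes between Synpr-high and Slc30a3-high cells, grouped by family. Points are edgeR estimates over 4 mice, bars their standard errors, and filled points passed at an adjusted p under 0.05: 3 lie above 0 and 8 below, with at least 1 filled point in every family tested except laminins, thrombospondins and Col4a3bp, and with the point of Col8a1 set by a class without any count, so that it is no measured fold.

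Fibrillar collagens, which build the cross-banded fibrils of connective tissue, went both ways: of 7 tested, 1 was higher and 2 were lower in Synpr-high than in Slc30a3-high cells. Col11a1, the chain that starts type XI fibrils and limits their width, stood at 194 CPM in Synpr-high cells of the blindly sampled mouse and at 218, 176 and 189 CPM in projection mice 1, 2 and 3. In Slc30a3-high cells of the same mice it stood at 9.13, 1.66, 4.90 and 6.38 CPM, and in the remaining cells at 4.62, 6.37, 12.1 and 6.19. The lowest Synpr-high value lay far above the highest of the other 8 sums. The means were 194 ± 17.5 CPM in Synpr-high and 5.52 ± 3.11 in Slc30a3-high cells (SD, n = 4 mice). The log2 fold change was 5.22 ± 0.42 (SE) against Slc30a3-high cells (edgeR adjusted p = 5.49e-06) and 4.68 ± 0.41 against the remaining cells (edgeR adjusted p = 8.41e-06; 5.29 with lower class limits, Synpr 100 and Slc30a3 10 CPM). No difference was called between Slc30a3-high and remaining cells (edgeR adjusted p = 0.756).

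Col24a1, a fibrillar collagen of bone and cornea, was read along with it in Synpr-high cells, at 66.9, 77.5, 24.1 and 71.5 CPM, but less evenly. Slc30a3-high cells held 4.35, 3.02, 21.1 and 5.36 CPM. Every mouse was higher in Synpr-high cells, but projection mouse 2 had both the lowest Synpr-high and the highest Slc30a3-high value. The log2 fold change of 2.78 ± 0.91 did not pass (edgeR adjusted p = 0.0958) and did with the mouse as a block (edgeR adjusted p = 0.0313), with thinned cells (0.0341) and with class limits of 400 and 40 CPM (0.0253). In the remaining cells Col24a1 ranged from 0 to 25.0 CPM.

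Col5a2 and Col27a1 went the other way. Col5a2, a chain of type V collagen, which nucleates fibrils, was at 0, 0.663, 0.164 and 2.30 CPM in Synpr-high cells and at 11.3, 31.1, 33.1 and 43.3 in Slc30a3-high cells. The remaining cells held 2.64, 12.5, 18.9 and 42.5 CPM, above the Synpr-high cells of the same mouse in 4 of 4. Col5a2 was lower in Synpr-high cells by both tests (log2 fold change -4.95 ± 0.87, edgeR adjusted p = 0.00301, against Slc30a3-high; -4.34 ± 0.86, edgeR adjusted p = 0.00538, against the remaining cells). The first call was lost without projection mouse 1 (edgeR adjusted p = 0.0576), and the second without mouse 1 (0.0604) or 2 (0.0607). The estimates were -6.08 and -4.97 without mouse 3, and -3.92 and -3.35 with the lower class limits.

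Col27a1, a fibrillar collagen of cartilage, had 5 counts in all Synpr-high cells, which gave 0, 0, 0.329 and 0.0365 CPM. Slc30a3-high cells held 2.61, 3.22, 3.44 and 18.6 CPM, and the remaining cells 0, 4.21, 3.81 and 11.97. The first pair of groups did not overlap, and the second met at 0 in the blindly sampled mouse. The log2 fold changes were -6.09 ± 1.32 (edgeR adjusted p = 0.0113) and -5.64 ± 1.31 (edgeR adjusted p = 0.0145). Both calls were lost without either of 2 mice: without projection mouse 1 the edgeR adjusted p was 0.0855 and 0.0951 with little change in the estimates (-5.84 and -5.24), and without mouse 3 it was 0.199 (log2 fold change -4.48) and 0.175 (-4.34), while without mouse 2 the estimates were -8.10 and -7.54. Col1a1, Col1a2 and Col3a1, the chains of the common interstitial fibrils, had 10, 19 and 25 counts over the 1011 cells and were not tested.

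Col5a1, the partner chain of Col5a2, was highest in the remaining cells, at 1.32, 17.96, 11.4 and 10.9 CPM. Synpr-high cells held 0, 2.32, 0.904 and 0.0365 CPM and Slc30a3-high cells at most 1.30. Every mouse was lower in Synpr-high than in remaining cells, but the log2 fold change of -3.58 ± 1.15 passed only in other fits (edgeR adjusted p = 0.0722, 0.0322 with the mouse as a block and 0.00812 by DESeq2). Against Slc30a3-high cells the remaining cells differed by DESeq2 alone of the fits with all 4 mice (-5.07, edgeR adjusted p = 0.114; 0.00127 by DESeq2).

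**Figure D2:**
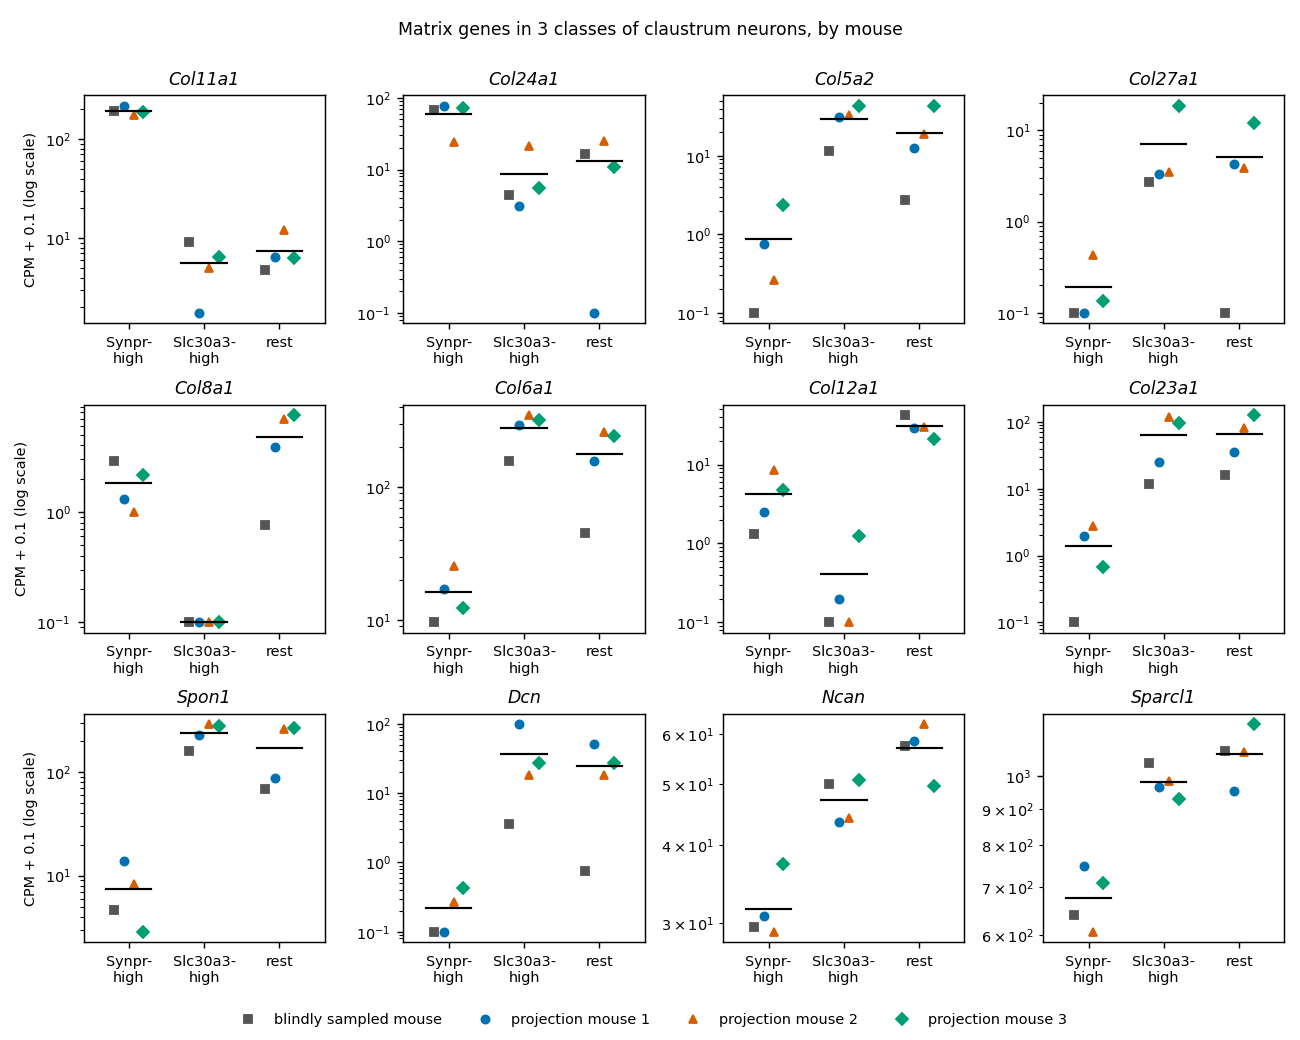
Normalized CPM (log axis, 0.1 added) of 12 matrix genes in Synpr-high, Slc30a3-high and remaining cells. Each point is 1 mouse and each black line the mean of 4: Col11a1 lies between 176 and 218 in Synpr-high cells and at most at 12.1 elsewhere, whereas Spon1 and Col6a1 lie at most at 13.81 and 25.4 in Synpr-high cells.

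Among collagens of networks and basement membranes, 3 of 11 could be tested. Col8a1, a short-chain collagen of vessel walls and of the cornea, had no count in Slc30a3-high cells of any mouse. Synpr-high cells held 2.76, 1.22, 0.904 and 2.08 CPM (99 counts) and the remaining cells 0.660, 3.75, 6.79 and 7.43 CPM (129 counts). Every mouse thus had Col8a1 in both of these classes and none in Slc30a3-high cells. Set against the 3 counts that a count of 0 allows over all Slc30a3-high cells (0.0634 CPM), the pooled level was at least 25.2-fold higher in Synpr-high and at least 87.8-fold higher in the remaining cells. Both differences passed (edgeR adjusted p = 0.00654 and 0.0118). They were lost without projection mouse 1 (0.0577 and 0.115), 2 (0.0503 and 0.132) or 3 (0.0863 and 0.160), and Col8a1 was counted in 23 cells only. Col4a2, which pairs with Col4a1 in the basement membranes of vessels, was at 43.0 ± 9.27 CPM in Synpr-high, 33.1 ± 9.41 in Slc30a3-high and 34.0 ± 19.4 in the remaining cells, and its log2 fold change of 0.37 between the first 2 classes did not pass (edgeR adjusted p = 0.717).

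Of the 4 type VI and related chains tested, Col6a1 alone passed, with 21150 counts over all kept cells. It encodes a chain of type VI collagen, which forms beaded filaments around cells. Synpr-high cells held 9.52, 17.2, 25.4 and 12.2 CPM, Slc30a3-high cells 158, 292, 350 and 324, and the remaining cells 44.9, 158, 261 and 244. The Synpr-high values lay below all others, and the remaining cells lay below Slc30a3-high cells in 4 of 4 mice. The log2 fold change was -4.11 ± 0.49 against Slc30a3-high cells (edgeR adjusted p = 0.000139) and -3.45 ± 0.47 against the remaining cells (edgeR adjusted p = 0.000375), with no call between the latter (0.66 ± 0.43, edgeR adjusted p = 0.703). Col6a2, whose product joins that of Col6a1 in the same trimer, showed no such split: its means were 26.4 ± 12.1, 24.4 ± 7.69 and 21.4 ± 12.6 CPM in the 3 classes (log2 fold change 0.12, edgeR adjusted p = 0.975). The third usual chain, Col6a3, had 48 counts in 10 cells.

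Collagens that attach to fibrils were led in the remaining cells by Col12a1, which decorates type I fibrils. It was at 42.2, 28.9, 30.0 and 21.1 CPM there, at 1.23, 2.43, 8.38 and 4.60 in Synpr-high cells and at 0, 0.0975, 0 and 1.16 in Slc30a3-high cells (25 counts). None of the 3 classes overlapped. All 3 differences passed: 3.31 ± 0.86 between Synpr-high and Slc30a3-high (edgeR adjusted p = 0.0311), -2.82 ± 0.76 between Synpr-high and remaining (edgeR adjusted p = 0.0312) and -6.13 ± 0.93 between Slc30a3-high and remaining cells (edgeR adjusted p = 0.00548). Each call was lost without some single mouse, in part with little change in the estimate. The first was lost without projection mouse 1 (edgeR adjusted p = 0.169, log2 fold change 3.21) or 2 (0.206, 2.30) and stood at 6.34 without mouse 3, and it was also lost without plate 12 (0.0581) and when cells were thinned to equal depth (2.46, edgeR adjusted p = 0.139) and stood at 2.40 with the lower class limits. The second was lost without the blindly sampled mouse (edgeR adjusted p = 0.101, -2.39) or mouse 1 (0.164, -2.66), and the third without mouse 1 (0.101, -5.87) or 2 (0.0620, -5.70), at -9.35 without mouse 3, -5.21 with thinned cells and -5.30 with the lower class limits. Col16a1, the fibril-associated collagen with the most counts, ran from 16.35 to 26.1 CPM in Synpr-high, 9.01 to 15.4 in Slc30a3-high and 10.7 to 19.1 in the remaining cells, and did not pass between the first 2 classes (log2 fold change 0.89, edgeR adjusted p = 0.0982; 0.0491 by DESeq2).

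The remaining cells were split further by whether a cell held 2 or more of the layer 6-like markers (119 cells) or fewer (95 cells), a split made after the values had been seen and given without a test. Of 652 Col12a1 counts 650 fell in the first group (52.6 CPM against 0.185 in the other), and all 129 Col8a1 counts did (10.4 CPM against 0). Col5a1 had 21.9 and 3.42 CPM in the 2 groups, Col23a1 92.7 and 56.02, and Spon1 206 and 173. Against this, Col6a1 had 121 and 305 CPM, Dcn 15.1 and 53.0, and Col5a2 10.03 and 38.2. Values for the remaining cells above are therefore averages over unlike cells.

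The 2 transmembrane collagens that could be tested behaved differently. Col23a1, a single-pass membrane collagen that can be shed, was at 0, 1.88, 2.71 and 0.584 CPM in Synpr-high cells. Slc30a3-high cells held 11.7, 25.0, 119 and 96.0 CPM and the remaining cells 15.8, 35.2, 82.0 and 127. Synpr-high cells lay below both in every mouse, and the blindly sampled mouse was the lowest throughout. Both differences passed (-5.46 ± 0.91, edgeR adjusted p = 0.00198; -5.51 ± 0.91, edgeR adjusted p = 0.00159) and stood at -4.75 and -4.90 with the lower class limits, the second also at -4.66 without projection mouse 3. Col25a1, a membrane collagen first isolated from amyloid plaques and needed for motor innervation, was at 32.2, 68.8, 54.6 and 79.7 CPM in Synpr-high and at 23.5, 63.2, 78.8 and 72.3 in Slc30a3-high cells, with a log2 fold change of -0.02 (edgeR adjusted p = 0.9997). In the remaining cells it was at 11.2, 11.1, 26.2 and 55.7 CPM, below Synpr-high cells in 4 of 4 mice, a difference that passed only with the mouse as a block (edgeR adjusted p = 0.199 without it and 0.0157 with it).

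Laminins, the cross-shaped trimers of basement membranes, were sparse. Of 10 genes 4 were tested and none passed between Synpr-high and Slc30a3-high cells by edgeR, its blocked fit or DESeq2. At an unadjusted edgeR p under 0.05 were 2 of the 4 and 2242 of all 13104 genes. Lamb1, the usual beta chain, was at 0, 2.27, 0.0822 and 0.0365 CPM in Synpr-high and at 7.82, 6.83, 3.58 and 8.99 in Slc30a3-high cells. The 2 groups of Lamb1 values did not overlap, yet the log2 fold change of -3.35 ± 1.38 did not pass (edgeR adjusted p = 0.209).

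Thrombospondins, secreted proteins that bind calcium and promote synapse formation when released by astrocytes, also gave no call by edgeR in the 3 tested of 4. At an unadjusted edgeR p under 0.05 were 1 of the 3 and 2242 of all 13104 genes. Thbs4 was at 3.68, 1.60, 5.59 and 4.63 CPM in Synpr-high cells and at 0.435, 0.0975, 0.0662 and 1.69 in Slc30a3-high cells, higher in 4 of 4 mice (log2 fold change 2.66 ± 1.31, edgeR adjusted p = 0.331, and 0.0496 with the mouse as a block). Against the remaining cells the block changed its call too (edgeR adjusted p = 0.270 without it and 0.0329 with it). Thbs3, with 1158 counts, had means of 5.86 ± 3.26, 9.93 ± 4.73 and 8.69 ± 8.55 CPM, and a log2 fold change of -0.77 between the first 2 classes (edgeR adjusted p = 0.653). Thbs2 averaged 0.0573, 1.19 and 2.37 CPM (log2 fold change -4.01 between the first 2, edgeR adjusted p = 0.150; against the remaining cells 0.0626, and 0.0108 by DESeq2), and Thbs1 had 16 counts in 4 cells.

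Spon1, F-spondin, a secreted protein of the embryonic floor plate that guides commissural axons, had the second smallest p among the matrix genes. Synpr-high cells held 4.60, 13.81, 8.13 and 2.77 CPM. In Slc30a3-high cells the level was 161, 230, 289 and 280 CPM, and in the remaining cells 68.0, 87.1, 264 and 270. The highest Synpr-high value lay well under the lowest of the 8 others. Spon1 was lower in Synpr-high cells by a log2 fold change of -5.00 ± 0.57 (edgeR adjusted p = 0.000102) against Slc30a3-high and of -4.53 ± 0.56 (edgeR adjusted p = 0.000151) against the remaining cells, the latter between -5.28 without projection mouse 1 and -3.94 without mouse 3. Spon2, the related mindin, had 4 counts in 4 cells.

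Of the small leucine-rich proteoglycans, which bind collagen fibrils, Dcn (decorin) alone could be tested. Synpr-high cells held 11 counts, which gave 0, 0, 0.164 and 0.328 CPM. Slc30a3-high cells held 3.48, 97.8, 18.2 and 27.4 CPM and the remaining cells 0.660, 51.4, 18.0 and 27.3. Projection mouse 1 was the highest and the blindly sampled mouse the lowest in both of the latter classes, and neither class overlapped Synpr-high cells. The log2 fold changes were -7.71 ± 1.28 (edgeR adjusted p = 0.00192) and -7.14 ± 1.26 (edgeR adjusted p = 0.00257). They moved to -6.15 and -6.07 without mouse 1, to -9.06 and -8.32 without mouse 3 and to -8.84 and -7.91 with thinned cells. Dcn is also a fibroblast marker. Of the fibroblast genes that are no matrix genes, Pdgfra averaged 0.485 CPM in Synpr-high, 3.39 in Slc30a3-high and 0.104 in the remaining cells and Slc6a13 was at 0, and their part in the Dcn values was not tested. The 66 counts of Lum (lumican) came from a single cell, and Bgn (biglycan) and Fmod (fibromodulin) had 44 and 13 counts.

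Among lecticans, the hyaluronan-binding chondroitin sulfate proteoglycans, Ncan (neurocan) and Vcan (versican) differed in their calls: Ncan passed as lower in Synpr-high cells and Vcan did not pass. Ncan was at 29.5, 30.7, 29.0 and 37.2 CPM in Synpr-high, 49.98, 43.4, 44.0 and 50.6 in Slc30a3-high and 57.4, 58.4, 62.1 and 49.6 in the remaining cells. The change was small but even over mice, with Synpr-high cells below all 8 other sums. It passed at -0.57 ± 0.16 against Slc30a3-high (edgeR adjusted p = 0.0468) and at -0.85 ± 0.16 against the remaining cells (edgeR adjusted p = 0.00416). The first call was lost without any 1 of the 4 mice (edgeR adjusted p from 0.117 to 0.185) and with cells thinned to equal depth (0.250), and the second without projection mouse 1 (0.0513) or 2 (0.0549).

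Vcan ran from 7.68 to 18.9 CPM in Synpr-high and from 0 to 4.10 in Slc30a3-high cells, higher in 4 of 4 mice without overlap (log2 fold change 3.12 ± 1.02, edgeR adjusted p = 0.0941; 0.00936 by DESeq2). Bcan (brevican) averaged 2.19 CPM in Synpr-high and 0.868 in Slc30a3-high cells (log2 fold change 1.22, edgeR adjusted p = 0.765) and 0.165 in the remaining cells, where DESeq2 alone gave a call against Synpr-high cells (adjusted p = 0.110 by edgeR and 0.0376 by DESeq2). Oligodendrocyte precursors express lecticans too. Their 5 markers had a median sum of 5.14 CPM in Synpr-high (0 to 11.7), 21.6 in Slc30a3-high (0 to 68.7) and 0.524 in the remaining cells (0.227 to 1.32), and their part in the values of Ncan, Vcan and Bcan was not tested. Acan (aggrecan), the core protein of perineuronal nets, had 3 counts in 3 cells.

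Sparcl1 (hevin), a synapse-promoting glycoprotein, was counted in 995 of 1011 cells. Its level was 639, 748, 606 and 710 CPM in Synpr-high, 1043, 964, 983 and 930 in Slc30a3-high and 1084, 954, 1080 and 1180 in the remaining cells. Synpr-high cells lay below all other sums, by a log2 fold change of -0.54 ± 0.10 (edgeR adjusted p = 0.00371; 0.0573 without projection mouse 2) and of -0.67 ± 0.10 (edgeR adjusted p = 0.000613). Astrocytes express Sparcl1 and Ncan strongly. The 6 astrocyte markers summed to between 6.86 and 10.8 CPM in Synpr-high cells (Aqp4 at 0), 9.13 and 17.6 in Slc30a3-high cells (Gfap at 0) and 21.5 and 92.4 in the remaining cells, and their part in these 2 genes' differences was not tested. Sparc (osteonectin), a collagen-binding relative, averaged 1.196, 0.969 and 0.557 CPM (log2 fold change 0.36 between the first 2, edgeR adjusted p = 0.960). Col4a3bp, the ceramide transfer protein, averaged 31.8, 31.1 and 35.1 CPM (log2 fold change 0.03, edgeR adjusted p = 0.992).

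Shares of cells with a count were compared after each cell had been thinned to 20000 counts, which kept 927 of the 1011 cells. Classes were set again by the same limits from the thinned counts, where any count of Slc30a3 reached its limit. This gave 412 Synpr-high, 322 Slc30a3-high and 193 remaining cells. Col11a1 was counted in 76.7% of thinned Synpr-high cells (exact Clopper-Pearson 95% interval 72.3 to 80.7), in 4.04% of Slc30a3-high and in 4.66% of remaining cells. Before thinning, over all kept cells in their first classes, its shares were 85.6%, 8.64% and 10.3%. Spon1 had shares of 6.31%, 78.3% and 60.6% (11.4%, 85.5% and 65.4% before thinning) and Col6a1 of 12.4%, 87.9% and 65.8% (24.7%, 91.6% and 70.6%). These 3 genes were thus read in most cells of the classes where they were high, not in a few cells with large counts.

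Other genes were read in a minority even where their level was high. Col23a1 had a count in 37.0% of thinned Slc30a3-high and 35.8% of remaining cells against 2.43% of Synpr-high cells, and Dcn in 14.6% and 10.9% against 0 of 412, which allows up to 0.728%. Col27a1 was counted in 9.32% and 6.74% against 0 of 412 Synpr-high cells, with the same limit. Col12a1 stood at 20.7% of remaining, 3.16% of Synpr-high and 0.621% of Slc30a3-high cells, and Col8a1 at 3.63%, 2.67% and 0 of 322, which allows up to 0.932%. For Sparcl1 all 3 classes were between 97.9% and 99.3%. These limits and intervals cover counting error only.

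**Figure D3:**
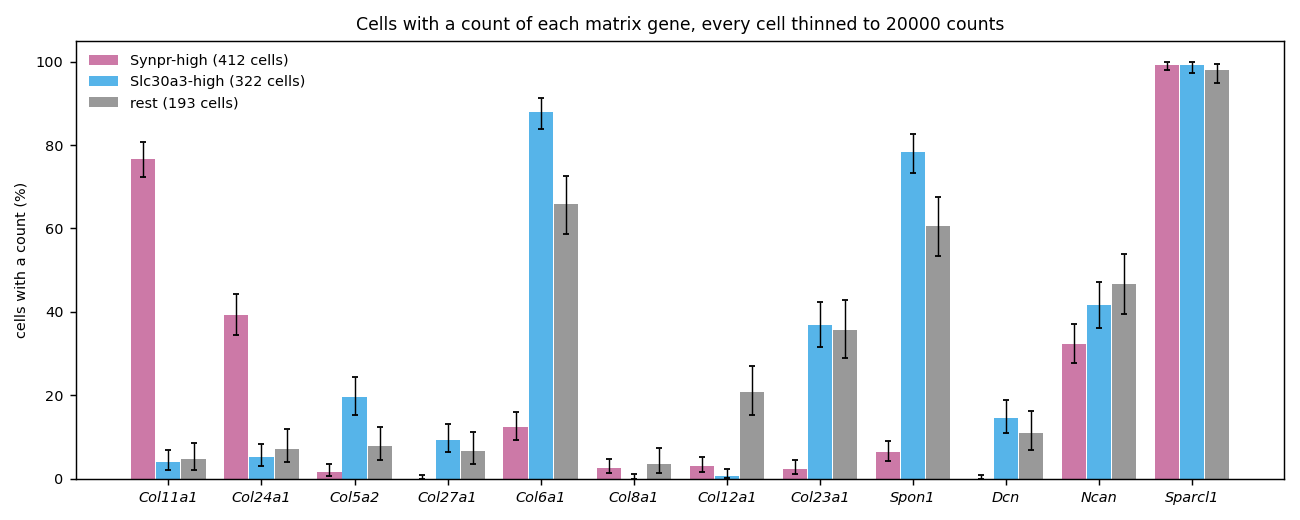
Percent of cells with at least 1 count, in cells thinned to 20000 counts, for matrix genes in the 3 classes set from the thinned counts. Bars are the shares and the black lines on them exact 95% Clopper-Pearson intervals over cells: Col11a1 is read in 76.7% of Synpr-high cells, and Spon1 and Col6a1 in 78.3% and 87.9% of Slc30a3-high cells.

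Genes read together in single thinned cells were then counted, for pairs chosen after their levels had been seen. Over the 927 thinned cells 329 held both Spon1 and Col6a1, which was 83.3% of cells with Spon1 and 71.4% of cells with Col6a1. By class, the share of Spon1 cells that also held Col6a1 was 228 of 252 in Slc30a3-high (90.5%), 94 of 117 in remaining (80.3%) and 7 of 26 in Synpr-high cells (26.9%). With or without Spon1, Col6a1 was in 283 of 322, 127 of 193 and 51 of 412 cells of these classes. Over all classes 26 held both Col11a1 and Spon1, or 7.69% of cells with Col11a1 and 6.58% of cells with Spon1. Within Synpr-high cells 13 of 26 Spon1 cells held Col11a1 (50%), beside 316 of all 412 cells of that class. Of Col11a1 cells, 6 of 13 held Spon1 in the Slc30a3-high class (46.2%), beside 252 of all 322 cells. In the remaining cells 7 of 9 did (77.8%), beside 117 of all 193. Whether the split between classes accounts for this pair was not tested. Of 68 cells with Dcn, 65 also held Col6a1. Cells of 1 mouse and plate share their library, so these shares describe the cells and are not tests.

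Labeled projection cells differed in 8 matrix genes. Between RSC- and LEC-labeled cells of the 3 projection mice, 8 of 41 tested passed (19.5%; 3.95% of all 13976 genes tested), with 2 higher in RSC cells (1.89% of all genes) and 6 lower (2.06%). The median log2 fold change of the 41 was -0.27, beside -0.00 over all genes. The 8 were fibrillar collagens Col11a1, Col24a1, Col5a2 and Col27a1, then Col6a1, Col23a1, Spon1 and Dcn, and no network collagen, fibril-associated collagen, laminin, thrombospondin, lectican or SPARC gene passed in this fit. The same cells entered the class comparison, so neither result stands as support for the other. Of 247 RSC cells 86.2% were Synpr-high, 8.91% Slc30a3-high and 4.86% neither. Of 286 LEC cells 15.7% were Synpr-high, 64.0% Slc30a3-high and 20.3% neither, and the 240 unlabeled cells were mixed (27.9%, 31.3% and 40.8%). Lists of other cell types also differed between the labels. The inhibitory list summed to between 6.92 and 200.2 CPM in RSC cells and 0.162 and 0.887 in LEC cells, where Gad1, Gad2 and Sst were at 0 (unlabeled cells 0.531 to 62.8). The 8 fibroblast genes, Dcn among them, summed to between 0.920 and 5.40 CPM in RSC cells (Lum, Col1a1, Slc6a13 and Igf2 at 0) and 21.9 and 97.5 in LEC cells (Lum, Slc6a13 and Igf2 at 0). Most of the LEC sums was Dcn itself, at 87.2, 21.0 and 31.0 CPM in projection mice 1, 2 and 3. The difference in this list thus largely repeats that of Dcn and is no separate sign of fibroblasts. Without the 4 cells that held both Gad1 and Gad2, 8 genes passed, in a fit whose share over all genes is not given here. Otherwise the part of these cell types was not tested.

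Col11a1 was at 192, 165 and 177 CPM in RSC cells of projection mice 1, 2 and 3, at 68.5, 37.2 and 30.9 in LEC cells and at 54.9, 49.1 and 86.8 in unlabeled cells. RSC cells lay above both other groups. The log2 fold change between RSC and LEC cells was 1.97 ± 0.30 (edgeR adjusted p = 0.00488, n = 3 mice), and the call was lost without mouse 2 (0.0925) or 3 (0.0636). Col24a1 was at 77.0, 44.1 and 71.8 CPM in RSC and 22.7, 24.0 and 18.3 in LEC cells (1.57 ± 0.34, edgeR adjusted p = 0.0266), a call lost without mouse 1 (0.1301), 2 (0.0975) or 3 (0.155).

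Col6a1 was at 38.4, 56.9 and 20.1 CPM in RSC cells, 200 (199.6), 343 and 301 in LEC cells and 135, 185 and 148 in unlabeled cells. The 3 groups did not overlap, with unlabeled cells between the labels. The log2 fold change of -2.89 ± 0.34 (edgeR adjusted p = 0.00172) passed in every alternative tried. Spon1 stood in the same order, at 27.6, 35.0 and 8.89 CPM in RSC, 82.5, 162 and 139 in unlabeled and 152, 290.2 and 270.2 in LEC cells (-3.35 ± 0.46, edgeR adjusted p = 0.00346; 0.0582 without mouse 2).

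Col5a2 had 17 counts in all RSC cells, at 0, 0.144 and 0.818 CPM, against 19.7, 35.2 and 53.2 in LEC cells. Unlabeled cells held 16.1, 13.04 and 9.28 CPM, again between the labels. The log2 fold change was -6.50 ± 0.76 (edgeR adjusted p = 0.00172; 0.0619 without mouse 2, -8.78 without mouse 3 and -5.20 with thinned cells). Dcn was at 4.63, 0.144 and 0.664 CPM in RSC and 87.2, 21.0 and 31.0 in LEC cells (-4.61 ± 0.86, edgeR adjusted p = 0.0142; -5.74 without mouse 1, -5.71 with thinned cells, 0.0902 without mouse 2 and 0.168 without mouse 3). For both genes LEC cells were the highest group in every mouse.

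Col23a1 was at 2.47, 12.4 and 0.664 CPM in RSC and at 21.1, 106 and 106 in LEC cells (-4.09 ± 0.91, edgeR adjusted p = 0.0302). It was lost without mouse 1 (0.0640), 2 (0.0675, log2 fold change -5.42) or 3 (0.263, -3.16). Col27a1 had 4 counts in RSC cells, all in mouse 2, and 2.52, 5.44 and 20.7 CPM in LEC cells (-6.07 ± 1.48, edgeR adjusted p = 0.0458). It was lost without any mouse (0.109, 0.0785 and 0.463, with estimates of -10.48 without mouse 2 and -3.88 without mouse 3), and it was the single call here lost with the mouse as a block (edgeR adjusted p = 0.105).

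**Figure D4:**
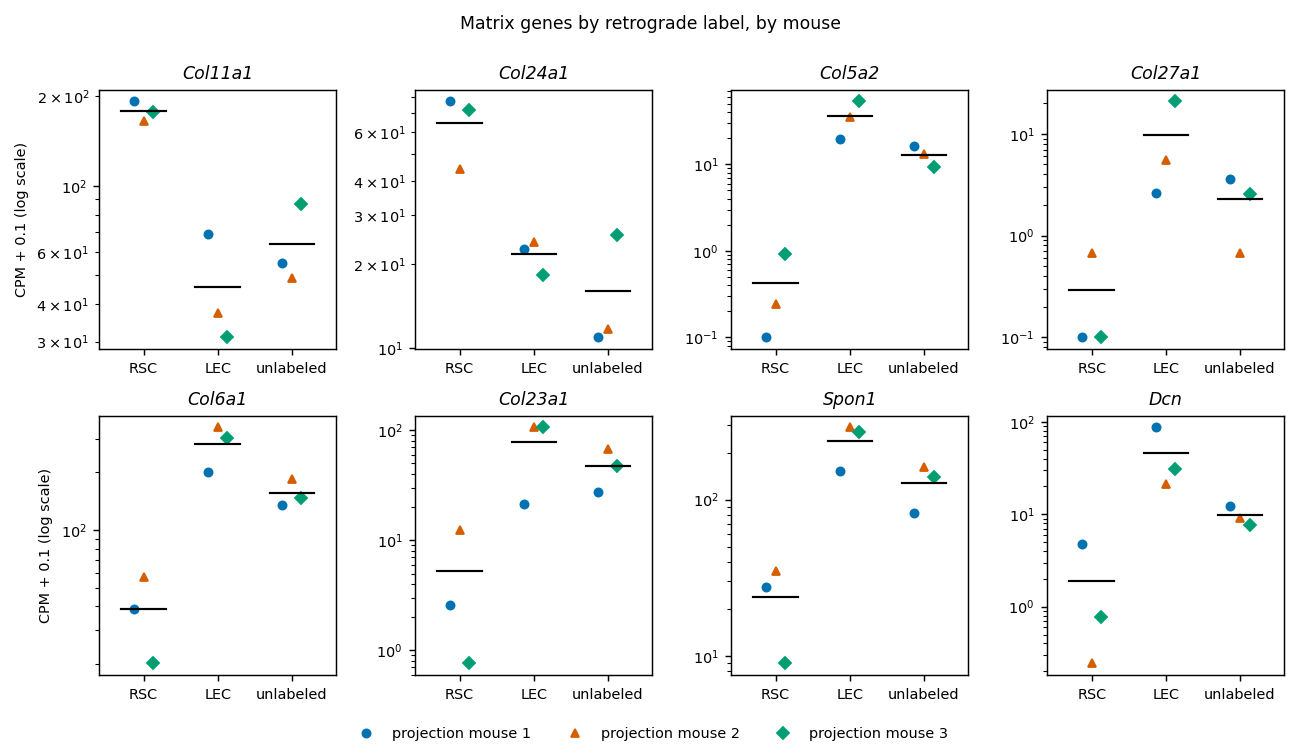
Normalized CPM (log axis, 0.1 added) of the 8 matrix genes that passed between RSC- and LEC-labeled cells, with unlabeled cells beside them. Points are the 3 projection mice and black lines their means: Col11a1 and Col24a1 are higher in RSC cells of every mouse, and the other 6 are higher in LEC cells.

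Other genes fell short between the labels. Col12a1 had a log2 fold change of 2.72 ± 0.75 (edgeR adjusted p = 0.0750; 0.0394 with no filter on low counts and 0.00239 by DESeq2), Col22a1, a collagen of tissue junctions, of -3.07 ± 0.96 (0.115; 0.00828 by DESeq2 and 0.00403 with thinned cells), Thbs3 of -1.20 (edgeR adjusted p = 0.204) and Vcan of 1.17 (edgeR adjusted p = 0.282). Each label was read from its own plates except on plate 12 of projection mouse 3, which held 34 RSC and 44 LEC cells, so that elsewhere plate and label cannot be told apart. Within plate 12 all 8 genes ran in the pooled direction: Col11a1 had 169 CPM in RSC and 57.9 in LEC cells, Col24a1 93.0 and 17.7, Spon1 7.59 and 222, Col6a1 28.6 and 245, Col5a2 0.407 and 48.3, Col23a1 0 and 73.8, Col27a1 0 and 13.3, and Dcn 1.76 and 6.06. These cells are also part of the projection mouse 3 sums behind the 8 calls, so the shared direction is no separate support. Col12a1 ran the opposite way on plate 12, at 0 and 3.36 CPM. Without plate 12 every plate held a single label, so that plate and label could not be told apart at all. In that fit 8 genes passed, with no share over all genes given here.

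The labels were then compared within each class, which narrows the mix of classes without making it equal. In Synpr-high cells of projection mice 1, 2 and 3, Slc30a3 was at 0.669, 45.6 and 89.9 CPM with the LEC label. With the RSC label it was at 5.36, 0 and 8.44 CPM. The part of this difference in the values below was not tested. Within Synpr-high cells none of 32 matrix genes passed by edgeR, DESeq2 or the blocked fit (by edgeR, 0.00% of all 12328 genes). At an unadjusted edgeR p under 0.05 were 6 of the 32 and 402 of all 12328 genes. Within Slc30a3-high cells 1 of 32 passed (3.13%; 0.292% of all genes), and 4 by DESeq2, whose share over all genes is not given here. These sums were small: LEC-labeled Synpr-high cells numbered 18, 11 and 16 in the 3 mice, and RSC-labeled Slc30a3-high cells 9, 7 and 6.

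Col11a1 did not separate the labels within Synpr-high cells, at 217, 191 and 184 CPM in RSC and 221, 207 and 189 in LEC cells (log2 fold change -0.06 ± 0.41, p = 0.884 before and 1 after edgeR adjustment). Within Slc30a3-high cells it was at 3.82, 31.2 and 28.7 CPM in RSC cells (6, 25 and 24 counts) and at 1.55, 1.35 and 1.10 in LEC cells. Mice 2 and 3 carried most of this gap. It passed at 3.91 ± 0.56 (edgeR adjusted p = 0.0103), at 4.61 without mouse 1, and was lost without mouse 2 (0.266), mouse 3 (0.341) or plate 12 (0.0738). Synpr, which sets the class, was at 15.3, 8.73 and 9.55 CPM in these RSC cells and at 8.06, 2.69 and 6.61 in the LEC cells, and its part in the difference was not tested. The difference between the 2 classes in the label effect did not pass (log2 -3.98 ± 0.69, edgeR adjusted p = 0.0641).

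Col6a1 was lower in RSC than in LEC cells within the Slc30a3-high class of each mouse, at 132, 214 and 197 against 341, 389 and 350 CPM, without passing (-0.995 ± 0.52, edgeR adjusted p = 0.437). Spon1 was at 95.6, 78.5 and 31.1 CPM in RSC and 292, 329 and 321 in LEC cells of that class (-2.19 ± 0.88, edgeR adjusted p = 0.301), and Col23a1 at 0, 7.48 and 0 against 29.5, 140.0 and 122 (-5.50 ± 1.17, edgeR adjusted p = 0.0771; 0.000117 by DESeq2). Col6a1, Spon1 and Col23a1 had all passed between the labels above. The share of all genes without overlap of the labels is not given here. For all 3 genes named, the labels did not overlap in Slc30a3-high cells. Within Synpr-high cells they did for Col6a1, at 21.4, 13.03 and 8.65 in RSC and 10.5, 78.7 and 27.6 CPM in LEC cells (-1.40 ± 0.54, edgeR adjusted p = 1; -2.74 and 0.0331 with thinned cells), and for Spon1, at 18.3, 3.44 and 1.44 against 0.892, 27.5 and 8.69.

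**Figure D5:**
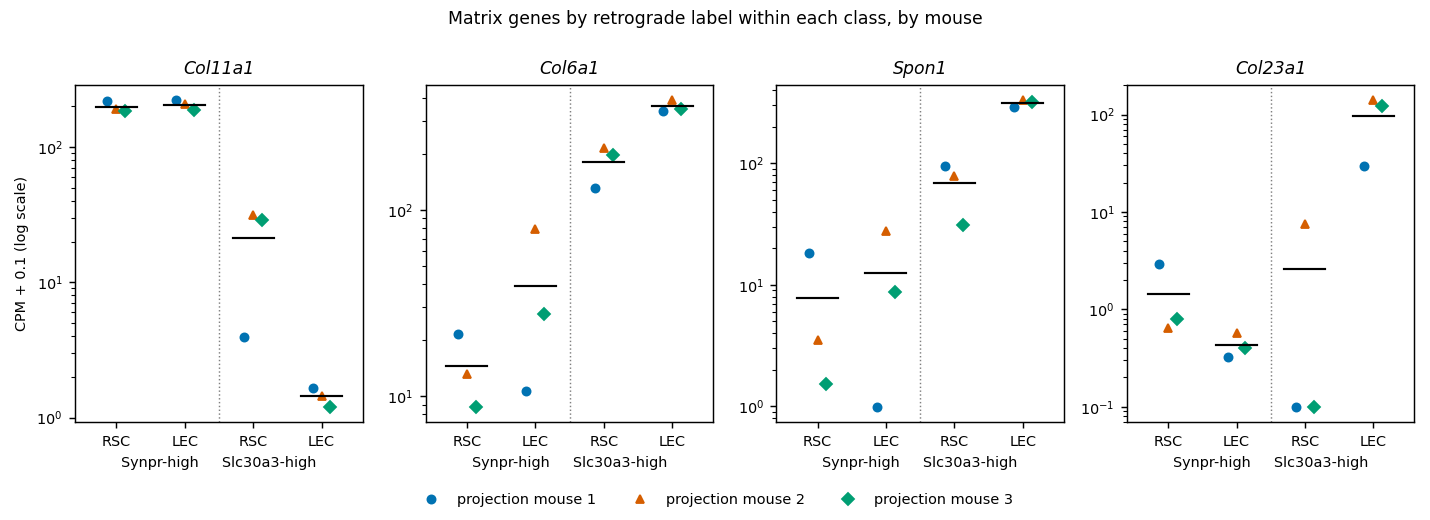
Normalized CPM (log axis, 0.1 added) of Col11a1, Col6a1, Spon1 and Col23a1 in RSC- and LEC-labeled cells within the Synpr-high and the Slc30a3-high class. Points are the 3 projection mice and black lines their means: Col11a1 lies between 184 and 221 in Synpr-high cells of both labels.

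Genes that bind, build or cut the matrix were read from a list of 102 receptors, linkers, collagen-processing enzymes, proteases and inhibitors, of which 98 were in the tables and 54 were tested between the classes. In Synpr-high against Slc30a3-high cells 2 passed as higher and 7 as lower (16.7%, against 6.71% of all genes tested, 3.28% higher and 3.43% lower), with a median log2 fold change of -0.21. Itga7, the integrin alpha chain that binds laminin, was at 25.8, 34.2, 31.6 and 31.6 CPM in Synpr-high and at 1.30, 3.32, 2.65 and 1.93 in Slc30a3-high cells (3.68 ± 0.42, edgeR adjusted p = 9.70e-05). The hyaluronan receptor Cd44 was the other higher gene, with 71 counts against 1 (5.42 ± 1.15, edgeR adjusted p = 0.00970; 7.04 without projection mouse 2, 0.103 without mouse 1 and 0.105 without mouse 3). Timp2, an inhibitor of metalloproteinases, was at 24.9, 24.8, 40.01 and 38.4 CPM in Synpr-high and 72.6, 121, 97.4 and 191 in Slc30a3-high cells (-1.91 ± 0.32, edgeR adjusted p = 0.00205). None of these 3 genes overlapped between the classes, and the share of all genes without overlap is not given here.

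Lower in Synpr-high cells were also the heparan sulfate proteoglycans Gpc1 (-1.78, edgeR adjusted p = 0.00280; 0.0573 without mouse 1) and Gpc4 (-3.44, edgeR adjusted p = 0.00750; 0.0854 without mouse 3), and 4 secreted ADAMTS metalloproteases. Adamts18 was at 1.53, 1.27, 1.97 and 0.474 CPM in Synpr-high and 12.6, 12.2, 18.7 and 18.5 in Slc30a3-high cells (-3.61, edgeR adjusted p = 0.00537; 0.0658 without mouse 1 and 0.0589 without mouse 3). Adamts13, which cuts von Willebrand factor, Adamts14, which trims procollagen, and Adamts16 passed at edgeR adjusted p = 0.0189, 0.0201 and 0.0182, and each was lost in 3 of the 4 fits that left out 1 mouse: Adamts13 and Adamts14 without mouse 1 (0.0548 and 0.133), 2 (0.101 and 0.0560) or 3 (0.126 and 0.227), with Adamts13 at -3.65 without mouse 1, and Adamts16 without the blindly sampled mouse (0.0581), mouse 1 (0.110, -7.31) or 3 (0.179, -5.39). Their log2 fold changes with all mice were -2.90, -6.19 and -6.23. None of the 9 collagen-processing enzymes tested, which hydroxylate, fold and cross-link the chains, passed in this comparison, with 0 at an unadjusted p under 0.05. Against the remaining cells 3 listed genes were higher and 9 lower in Synpr-high cells (22.2%, against 8.97% of all genes tested, 4.24% higher and 4.74% lower). These 9 include 2 of the collagen-processing enzymes, the prolyl 4-hydroxylase alpha chains P4ha1 and P4ha2. P4ha1 was at 34.1, 23.8, 26.2 and 26.6 CPM in Synpr-high and at 48.8, 45.4, 39.7 and 47.9 in the remaining cells, without overlap (-0.72 ± 0.19, edgeR adjusted p = 0.0250). The call was lost without mouse 1 (0.178), 2 (0.0884) or 3 (0.176), with no filter on low counts (0.0718) and with thinned cells (0.205). P4ha2 was at 11.7, 5.86, 19.1 and 10.1 CPM against 30.4, 29.2, 31.3 and 29.9 (-1.37 ± 0.35, edgeR adjusted p = 0.0245), a call lost without the blindly sampled mouse (0.0701), mouse 1 (0.114) or mouse 3 (0.148). Between Slc30a3-high and remaining cells Cd44 alone passed (1 of 54, or 1.85%, against 0.778% of all genes), lower with 1 count against 69 (edgeR adjusted p = 0.0130, and 0.0705 to 0.174 without any 1 mouse).

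Between the labels 60 listed genes were tested, with 1 higher and 3 lower in RSC than in LEC cells (6.67%, against 3.95% of all genes tested, 1.89% higher and 2.06% lower). Itga7 was at 35.0, 32.4 and 29.4 CPM in RSC and 11.2, 11.8 and 9.54 in LEC cells (1.58 ± 0.31, edgeR adjusted p = 0.0187), a call lost without mouse 1 (0.0840), 2 (0.159) or 3 (0.132). Adamts18 (-4.78, edgeR adjusted p = 0.00164; 0.0636 without mouse 3), Gpc4 (-3.20, edgeR adjusted p = 0.00183; 0.0550 without mouse 2, and -3.82 with thinned cells) and Timp2 (-1.77, edgeR adjusted p = 0.00534; 0.0535 without mouse 2 and 0.0546 without mouse 3) were lower in RSC cells. Within either class none of 44 passed by edgeR. At an unadjusted edgeR p under 0.05 were 2 in Synpr-high and 6 in Slc30a3-high cells. Of all 12328 genes tested, 402 and 1660 were under that limit in these classes.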

How the data were processed

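Single cells were hand-harvested, and the authors deposited whole-number counts per gene and cell in 2 tables (1 blindly sampled and 1 projection-labeled), read here as raw counts. The submitters' processing notes name the build NCBIM 37 and Seurat, and the study's methods STAR and Seurat v3; the version of STAR and the annotation are not given in the sources used here. The protocol tagged molecules, but whether the counts were collapsed by tag is not stated. Several counts may come from 1 molecule, so intervals cover counting error only. The projection table lists 14 of the 70 genes that the other does not (counted as 0 there), 16575 genes are in both, and 89 spike-in entries were left out. Cells, with their mouse and label as deposited, were kept with a count of Snap25 and of Slc17a7: 27 lacked the first and 74 more the second. No doublet caller was run on hand-picked cells; 4 kept cells held both Gad1 and Gad2.

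Counts were summed per mouse and class or label (at least 5 cells) and tested in edgeR 4.0.16 (R 4.3.3; TMM, filterByExpr, glmQLFit, glmQLFTest), with Benjamini-Hochberg adjustment over all genes tested and a threshold of 0.05. The standard error (SE) of a log2 fold change is its absolute value divided by the square root of the F of its edgeR test. CPM per mouse are TMM-normalized, and pooled, single-plate and split values are plain CPM. Scripts were tested on simulated data. The mice are the replicates; same-mouse sums of the class fit deviated together (correlation 0.118 to 0.498 over 12 pairs), so the mouse as a block was an alternative. The others were DESeq2 1.42.0, its size factors, no low-count filter, genes of both tables, other class limits, thinned cells and each mouse left out. Chosen after seeing the data were no plate 12, no Gad1 and Gad2 cells, and the block without the blindly sampled mouse. Fits on thinned cells used cells of at least 20000 counts, with classes set again from the thinned counts. Depth and class therefore changed together in them.

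Matrix genes and lists were chosen with earlier results of these data known. Named are all genes past the threshold, those the rule gives by name, thrombospondins, the gene with the most counts per family, Col4a3bp and up to 10 listed partner genes per comparison. Those named beyond this (Col1a1, Col1a2, Col3a1, Col5a1, Col6a2, Col6a3, Col22a1, Lamb1, P4ha1 and P4ha2) were chosen after their values were seen. No exon of another gene overlapped those of the 12 genes that passed, in GENCODE vM21. The values of 1 laminin gene are not reported here.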

Additional observations from a re-analysis of the deposited data

Results flagged for a closer look

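In 4 cases 1 mouse stood apart from the other 3 in the same class by Dixon's test at 95%, of 36 groups of 4 tested; chance alone gives about 1 in 20 groups. In Slc30a3-high cells, projection mouse 3 held Col12a1 at 1.16 CPM, with the next mouse at 0.0975, and Col27a1 at 18.6 CPM, with the next at 3.44. Projection mouse 2 held Col24a1 at 21.1 CPM in Slc30a3-high cells, with the next at 5.36, and Col27a1 at 0.329 CPM in Synpr-high cells, with the next at 0.0365.

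Col11a1 was also read in cells that no comparison used. The 27 cells removed for lack of Snap25 held it at 789 CPM, above the highest kept sum of 218. This value rests on 89 counts in 6 cells, with 46.1% of the counts in 1 cell. Over these 27 cells 1 count made 8.87 CPM, so their summed depth was low. The part of depth in the missing Snap25 was not tested.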

How the results depend on the processing

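Over 12 matrix genes, 32 differences passed. Under 441 alternative fits 386 kept direction and call, 55 kept direction but lost the call, and 0 reversed; 12 differences held throughout. With the mouse as a block 13, 13, 2, 7, 0 and 1 matrix genes passed in the 6 comparisons, in the order of the report, and 31 of 32 differences held. Leaving out 1 mouse gave 6 to 10 passing genes for Synpr-high against Slc30a3-high (11 with all mice), 6 to 9 for Synpr-high against the remaining cells (10), 0 to 2 for Slc30a3-high against the remaining cells (2), 1 to 5 for RSC against LEC (8) and 0 to 1 within Slc30a3-high cells (1). Slc30a3-high against the remaining cells gave 4 with DESeq2 and 1 with thinned cells. The labels gave 1 within Synpr-high cells when thinned (0 otherwise), and within Slc30a3-high cells 4 with DESeq2, 2 with thinned cells, 2 with no filter and 0 without plate 12. Shares over all genes in these other fits are not given here. A change in these counts thus cannot be told from a change in the calls over all genes. The cause of these changes was not tested, beyond the fewer cells or mice of some fits.

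With 3 or 4 mice, low counts limit the calls: 32 of the 70 had under 100 counts. The blindly sampled mouse was shallower, plate and label cannot be told apart outside plate 12, and LEC-labeled Synpr-high and RSC-labeled Slc30a3-high cells were few. Class limits use 2 genes, and the remaining cells were a mixture.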

Other observations

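Col24a1 stood high in cells that were left out for lack of Slc17a7. In these 74 cells it had 342 counts in 16 cells, or 292 CPM, and Col11a1 stood at 190 CPM there. The highest kept sum of Col24a1 was 77.5 CPM. Over these 74 cells 1 count made 0.854 CPM, and the part of depth in the missing Slc17a7 was not tested.

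The 2 chains of type VI collagen were counted together in thinned cells, as a pair chosen after its values were seen. Of 461 thinned cells with Col6a1, 123 also held Col6a2 (26.7%), and these were 55.2% of the cells with Col6a2. Col6a2 cells that also held Col6a1 were 69 of 77 in Slc30a3-high (89.6%), 32 of 38 in remaining (84.2%) and 22 of 108 in Synpr-high cells (20.4%). With or without Col6a2, Col6a1 was in 283 of 322, 127 of 193 and 51 of 412 cells of these classes. For the basement membrane pair Col4a1 and Col4a2, 58 cells held both, or 30.7% and 21.0% of the cells with Col4a1 and with Col4a2. Shares in single cells at this depth depend on each gene's level, so they set no order among pairs.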
